A study of Mus musculus with 6 samples.

Results

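Diphthamide is a modified histidine found in a single protein, elongation factor 2, which moves the ribosome along the messenger RNA. The residue is built in steps: Dph1 and Dph2 start the side chain, Dph3 and Dnajc24 (also named Dph4) assist them, Dph5 methylates the intermediate, and Dph7 and Dph6 complete it. It is best known as the target of diphtheria toxin, and it helps the ribosome to keep its reading frame. Messenger RNA of these 7 synthesis genes and of their substrate Eef2 is described here, 8 genes of the 24848 listed, in 3 wild-type (WT) and 3 E4f1 knockout (KO) mouse embryo brains at E14.5.

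The 8 genes were chosen by pathway and by one measured value, the lower level of Dph5 in KO brains. The difference between KO and WT in Dph5 is therefore given as a description with no test, and the adjusted p of the other 7, taken from the fit over all genes, serves only to say which were called. Each library is 1 brain with its own animal number. The labels do not give the allele, the cells that carry it, the litter or the sex, and p-values measure the spread between these brains. E4F1 binds DNA through zinc fingers and regulates transcription. By its title, the series concerns a role of E4F1 in pyruvate metabolism, in Elongator, which modifies tRNA and to which Dph3 also binds, and in accurate translation.

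The libraries held 42113465 to 74064707 expected counts, the read pairs that the RSEM program assigns to each gene, and 15848 genes had enough counts to be tested. E4f1 itself stood at 20.7, 21.6 and 21.5 CPM (counts scaled to a common library size) in WT brains and at 7.12, 7.01 and 6.92 CPM in KO brains, each in the order of the brains' numbers, as throughout. Markers of neurons and progenitors were present in all libraries, and none of the marker genes was at 0 in all of them. Marker levels differed between the libraries. The summed level of 3 midbrain markers ranged from 3.07 to 69.9 CPM in WT and from 0.266 to 1.61 CPM in KO. The summed level of 6 neuronal markers was 5849 to 6774 CPM in WT and 4393 to 5065 CPM in KO, that of 6 microglial markers 43.6 to 66.6 and 79.4 to 107 CPM, and that of 5 endothelial markers 187 to 223 and 245 to 345 CPM. The groups overlapped in the other marker sums. Progenitor markers summed to 1094 to 1632 CPM in WT and 1229 to 1408 CPM in KO, and telencephalon markers to 769 to 1251 and 880 to 1489 CPM. Meningeal markers ranged from 352 to 2343 CPM in WT and from 310 to 4688 CPM in KO, erythroid markers from 300 to 796 and 685 to 964 CPM. The groups did not overlap in the midbrain, neuronal, microglial and endothelial sums. The part of all these marker levels in the smaller differences below was not tested. A fit below uses a midbrain score as a covariate. That score did not overlap either (4.12, 3.18 and -0.19 in WT, -3.05, -1.31 and -1.97 in KO). Such a fit therefore cannot separate the midbrain markers from the knockout. In whole tissue, fewer cells of a type and less RNA per cell cannot be told apart.

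Dph5 was the gene of the pathway with the lowest level in KO brains. Its transcript (chromosome 3, 115888116 to 115934361, plus strand, GRCm38) had 545, 303 and 476 counts in the WT brains 1, 2 and 3, and 59, 56 and 58 in the KO brains 1, 2 and 3. In CPM these were 7.32, 7.37 and 7.16 against 0.825, 0.981 and 1.14. The 3 WT brains lay close together, the 3 KO brains did too, and the groups were far apart. The KO level was 13.5% of the WT level, a log2 difference of -2.89 ± 0.18 (SE, n = 3 per group) with a 95% interval of -3.32 to -2.47. For comparison, E4f1 was at 33.0% of its WT level. With the midbrain score as a covariate the Dph5 difference was -2.78 ± 0.31, about as large at a wider error, and Dph5 was not called in that fit, nor with WT 1, WT 2, KO 1 and KO 2 alone (-3.02 ± 0.22).

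The other enzymes stood at levels near those of WT. Under edgeR's quasi-likelihood test with Benjamini-Hochberg adjustment over all genes, Dph5 was the 1 member called lower at an adjusted p below 0.05, and none of the 8 was called higher. Of all tested genes, 0.492% were called lower and 0.511% higher. Since Dph5 helped to choose the list, nothing is read from this count. Taking an unadjusted p below 0.05 instead gave 3 lower members (Dph5, Dph3 and Dph2) and 1 higher member (Eef2). Without Dph5, 2 of the other 7 were lower and 1 higher. Among all genes these shares were 9.31% lower and 10.3% higher, 19.6% together. The genes were listed with results known, so nothing is read from these counts either.

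**Figure D1:**
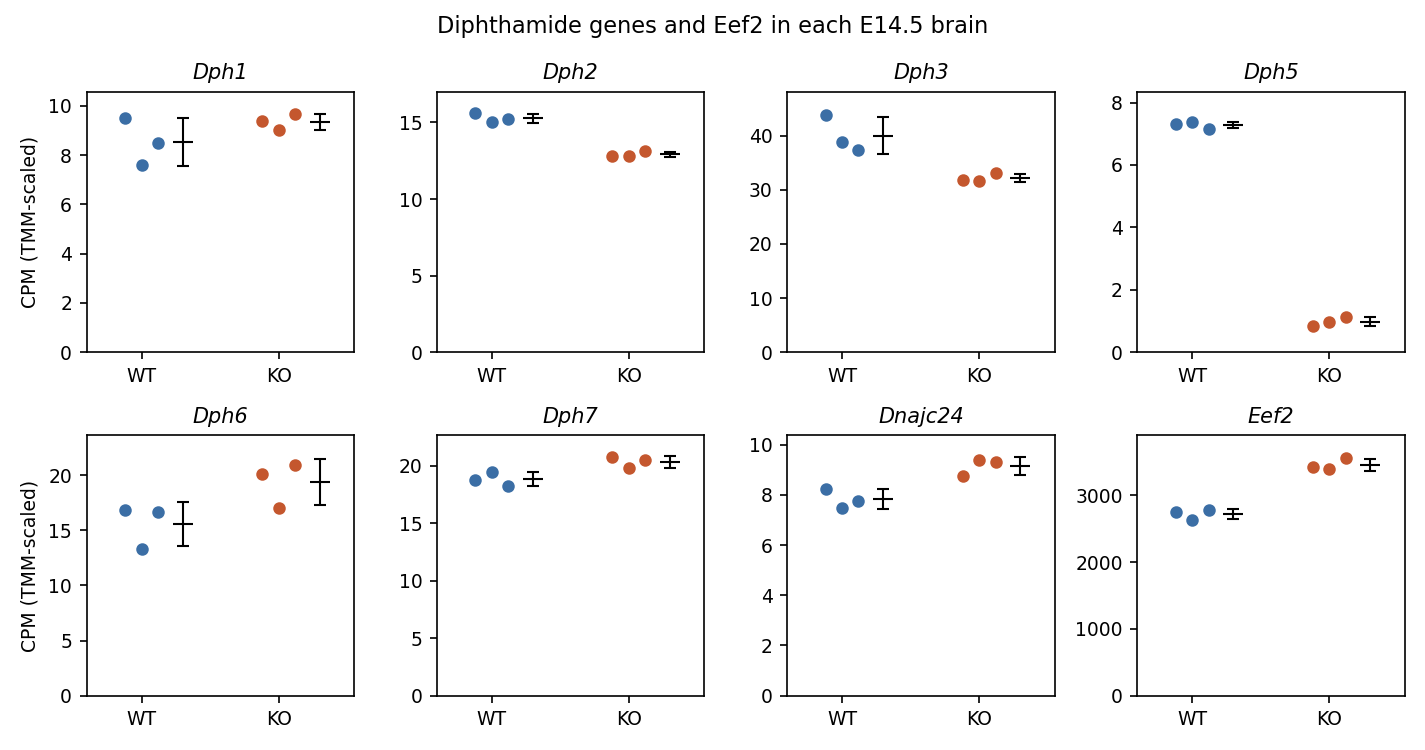
CPM of the 8 genes in each brain (vertical axes from 0, 1 panel per gene, WT in blue and KO in orange), with the mean and SD of 3 brains beside the points. Dph5 went from 7.16 to 7.37 CPM in WT to 0.825 to 1.14 CPM in KO, while the other panels show far smaller differences.

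Dph1 and Dph2 form the iron-sulfur enzyme that attaches the precursor of the side chain. Dph2 (chromosome 4, 117888643 to 117892003, minus strand) stood at 15.6, 15.0 and 15.2 CPM in WT and at 12.8, 12.8 and 13.1 CPM in KO. All KO brains were below all WT brains, by a small margin, and the log2 difference of -0.24 ± 0.08 did not pass the test (95% interval -0.44 to -0.05, edgeR adjusted p = 0.186). Dph1 (chromosome 11, 75177643 to 75190483, minus strand) stood at 9.52, 7.59 and 8.50 CPM in WT and at 9.37, 9.005 and 9.66 CPM in KO. These groups overlapped (log2 difference 0.13 ± 0.12, interval -0.17 to 0.43, edgeR adjusted p = 0.587). Dph1 overlaps Ovca2 on the same strand and had fractional expected counts, so part of its reads was shared out by estimate.

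Dph3, a small zinc protein that passes electrons to this enzyme, was the most abundant synthesis gene in WT. It lies on chromosome 14 (32080517 to 32085692, minus strand). Its level was 43.9, 38.8 and 37.3 CPM in WT and 31.9, 31.7 and 33.1 CPM in KO. The highest KO brain was below the lowest WT brain, and WT 1 stood above the other WT brains. The log2 difference of -0.31 ± 0.08 did not pass the test (95% interval -0.51 to -0.11, edgeR adjusted p = 0.134). It was -0.13 ± 0.14 with the midbrain score as a covariate, while DESeq2 called it lower (-0.31 ± 0.10, adjusted p = 0.0299). The Elongator genes give a scale for this value: of 6 tested, edgeR called Elp3, the catalytic subunit, which fell to 17.9% of its WT level (log2 difference -2.49 ± 0.08), and did not call the other 5. Elp2 and Elp5, the most abundant of them, had 0.03 ± 0.07 and 0.10 ± 0.05. Of all tested genes, edgeR called 0.492% lower and 0.511% higher.

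Dnajc24, a J-domain co-chaperone, acts at the same step. It lies on chromosome 2 (105966708 to 106003549, minus strand) and stood at 8.24, 7.47 and 7.75 CPM in WT and at 8.73, 9.39 and 9.29 CPM in KO. All KO brains were higher, and the difference did not pass the test (0.22 ± 0.11, interval -0.03 to 0.48, edgeR adjusted p = 0.304).

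The enzymes after Dph5 did not share its low level. Dph7 (chromosome 2, 24962171 to 24972186, plus strand) removes a methyl group that Dph5 has added. It stood at 18.8, 19.5 and 18.3 CPM in WT and at 20.7, 19.8 and 20.5 CPM in KO, a log2 difference of 0.11 ± 0.07 (interval -0.07 to 0.29, edgeR adjusted p = 0.443). Dph6 (chromosome 2, 114516416 to 114655046, minus strand), the amidase of the last step, stood at 16.8, 13.3 and 16.7 CPM in WT and at 20.1, 17.0 and 20.9 CPM in KO. In both genes the lowest KO brain lay just above the highest WT brain, and neither difference passed. In Dph6 the second brain of each group was the lowest (0.31 ± 0.13, interval -0.01 to 0.63, edgeR adjusted p = 0.263).

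Eef2, the substrate, was among the most abundant transcripts of these brains and was higher in each KO brain than in any WT brain, without passing the test. It lies on chromosome 10 (81176631 to 81182509, plus strand). Its level was 2749, 2630.4 and 2787 CPM in WT and 3419, 3393 and 3562 CPM in KO. This is 127% of the WT level, a log2 difference of 0.35 ± 0.07 (95% interval 0.18 to 0.52, edgeR adjusted p = 0.0863). DESeq2 called Eef2 higher (adjusted p = 1.92e-05).

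Of the 8 genes, 7 had groups that did not overlap, 4 higher and 3 lower in KO. Among all tested genes 27.6% did not overlap, 14.6% higher and 13.0% lower. Since the comparison had been seen when the genes were chosen, nothing is read from this share. Without Dph5, the log2 differences of the other 7 ranged from -0.31 to 0.35, with a median of 0.13 beside -0.001 over all tested genes.

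Levels of different genes were compared per transcript length, in TPM, a unit that sums to the same total in each library. In WT brains Dph3 and Dph7 led the synthesis genes at 35.8 ± 3.4 and 31.9 ± 1.1 TPM (SD, n = 3), and their ranges overlapped. Dnajc24 followed at 20.4 ± 1.0, then Dph2 at 16.7 ± 0.3 and Dph6 at 15.7 ± 1.9, whose ranges overlapped too. Dph5 was at 13.6 ± 0.2 TPM, in the range of Dph6, and Dph1 was lowest at 11.4 ± 1.3. In KO brains Dph5 was at 1.53, 1.81 and 2.06 TPM and ranked last of the 7 in each brain. The KO order was Dph7, Dph3, Dnajc24, Dph6, Dph2, Dph1 and Dph5, with no overlap between neighbours.

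Dph5 made up 8.93%, 9.72% and 9.42% of the summed TPM of the 7 synthesis genes in the WT brains and 1.14%, 1.39% and 1.53% in the KO brains. The sum of the other 6 was 128 to 139 TPM in WT and 128 to 133 TPM in KO, so these ranges overlapped. Eef2 was at 2404, 2308 and 2428 TPM in WT and at 2979, 2929 and 3013 TPM in KO, rank 18 to 21 among all genes of a library. Per 1000 TPM of Eef2 there were 5.69, 5.98 and 5.50 TPM of Dph5 in WT and 0.514, 0.618 and 0.684 in KO.

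**Figure D2:**
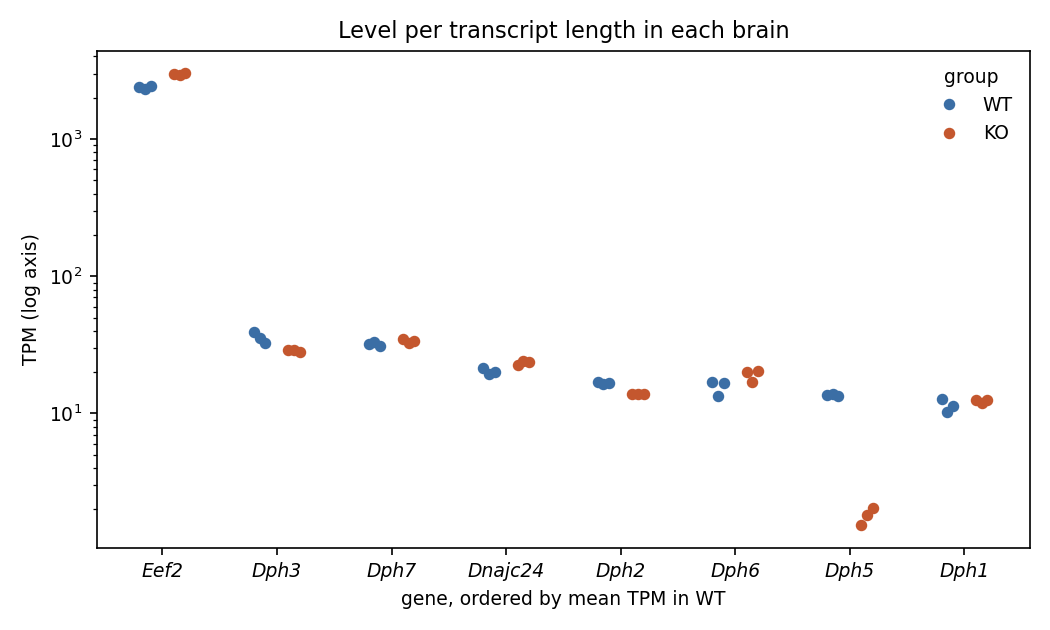
TPM of the 8 genes in each brain (log axis), ordered by their mean in WT, with WT in blue and KO in orange. In KO, Dph5 lies between 1.53 and 2.06 TPM, below all other points, and Eef2 lies between 2308 and 3013 TPM in the 6 brains.

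The tables also give a mean transcript length per gene, weighted by the abundance of its transcripts, which the choice of genes did not use. Dph1, Dph2, Dph5 and Eef2 have 1 transcript each in the tables, so a switch between their transcripts cannot be seen. Among the other 4 genes, Dph6 differed most clearly, with 2719.5, 2709 and 2722 bases in WT and 2734, 2734 and 2731 bases in KO. The groups did not overlap, the difference was 16.5 bases, and the 2-sided exact permutation test gave p = 0.1, the smallest that 3 against 3 allows, and 0.4 after adjustment over the 4 genes. The lengths of Dph3, Dph7 and Dnajc24 overlapped between the groups (exact permutation p = 0.8, 0.7 and 0.4).

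The loci differ in what lies beside them. A noncoding gene, A930005H10Rik (chromosome 3, 115881578 to 115888130), runs in the opposite direction to Dph5 and overlaps its start by 15 bases in RefSeq and by 294 bases in GENCODE. This gene is outside the naming rule and was picked for its position after its values had been seen. Noncoding genes within 1000 bases of the other members were Gm12841 at Dph2 and Snord37 at Eef2, and neither was tested. A930005H10Rik was counted at 179, 79 and 133 in WT and at 18, 10 and 20 in KO, or 2.40, 1.92 and 2.0002 CPM against 0.252, 0.175 and 0.392 CPM. The KO brains were all far below the WT brains, at 12.9% of the WT level, close to the 13.5% of Dph5. The log2 difference was -2.95 ± 0.34 (edgeR adjusted p = 0.0185).

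This call ended in 5 of the 6 fits that left out a brain. Leaving out a WT brain gave an edgeR adjusted p of 0.0720 (WT 1), 0.0580 (WT 2) or 0.0825 (WT 3). Leaving out a KO brain gave 0.153 (KO 1), 0.0539 (KO 2) or 0.0222 (KO 3). The call was also lost with WT 1, WT 2, KO 1 and KO 2 alone (edgeR adjusted p = 0.123), with the midbrain score as a covariate (0.835) and with the replicate number as a block (0.0605). In the fits that left out a brain the log2 difference was between -3.29 and -2.72. The library kit keeps strand, but the strand setting of the counting is not given in the sources used here. If strand was not used, reads of the overlap cannot be told apart between Dph5 and A930005H10Rik.

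The nearest protein-coding gene on each side of every locus, with any that overlap it, made 17 genes, of which 16 were tested and none was called by edgeR, DESeq2 or limma-voom, nor had any an unadjusted edgeR p below 0.05 (19.6% of all genes had). With 0.492% of all genes called lower and 0.511% higher by edgeR, 0 of 16 is near that background. Of all 15848 genes, DESeq2 called 652 lower and 781 higher, and limma-voom 90 and 97. In 5 of the 16 the groups did not overlap, 1 higher and 4 lower in KO, against 27.6% of all genes. Slc30a7, a zinc transporter gene whose end lies 4612 bases from that of Dph5, stood at 59.1 ± 1.1 CPM in WT and 54.9 ± 0.4 CPM in KO (SD, n = 3; log2 difference -0.11 ± 0.05, edgeR adjusted p = 0.327). S1pr1, on the other side and 173061 bases away, had 0.22 ± 0.15. Oxnad1 starts 36 bases from the start of Dph3 and runs in the other direction. It stood at 13.1 ± 0.7 CPM in WT and 14.1 ± 0.1 CPM in KO (log2 difference 0.10 ± 0.09, edgeR adjusted p = 0.534), and its groups differed in the direction opposite to Dph3. The other tested neighbours had log2 differences between -0.45 (Rtn4rl1, beside Dph1) and 0.27 (Hic1, also beside Dph1).

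**Figure D3:**
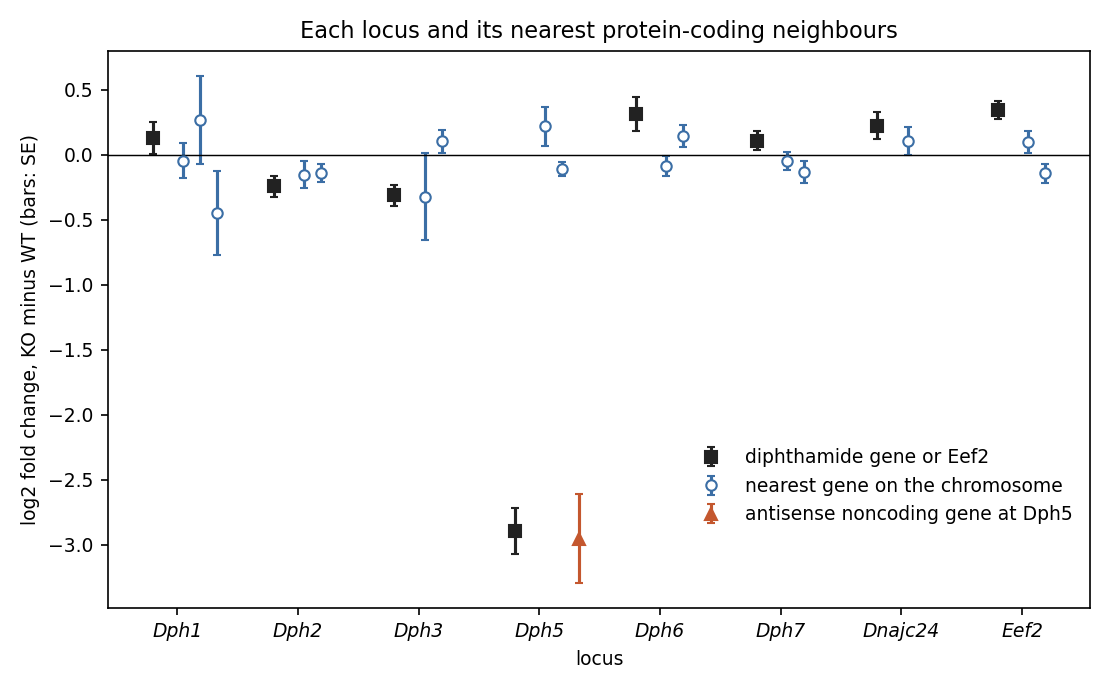
Log2 fold change of KO minus WT (vertical axis, bars are the SE) for each of the 8 loci (black squares), their nearest protein-coding neighbours (open circles) and the antisense noncoding gene at Dph5 (triangle). The points of Dph5 and A930005H10Rik lie at -2.89 and -2.95, all others between -0.45 and 0.35.

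Promoter sequences were searched for a motif that E4F1 is known to bind, TGACGTAAC, and for its core TGACGT, on both strands and from 250 bases before to 50 after the gene start in the RefSeq table of GRCm38.p6. Promoters of 7 of the 8 genes were in the table. The full motif was found in 1 of them, Dph3, against 30 of all 27025 genes with a promoter (0.111%). It starts 104 bases upstream of the Dph3 start, on the Dph3 strand. The start of Oxnad1, at base 32085728, lies between the Dph3 start and this site, so the site is also within Oxnad1. Oxnad1 had a log2 difference of 0.10 ± 0.09. The core, which the full motif contains, was also found in Eef2, where it starts 2 bases downstream of the gene start, and it occurs in 8.37% of all promoters. In Eef2 the core is part of a longer palindrome, TGACGTCA, whose share of all promoters was not counted. Both sites are shown, at chr14:32085778-32085806 (minus strand) and chr10:81176623-81176650 (plus strand). Capitals mark the full motif in Dph3 and the palindrome that holds the core in Eef2.
Dph3: ggccccggacTGACGTAACcgccatgaga
Eef2: ggccgggcgtTGACGTCAgcggtctctt

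Neither motif was found in the window of Dph5, which runs from 115887933 to 115888232 on chromosome 3. GENCODE places the farthest Dph5 start 346 bases upstream of the start used for this window, so bases before that start were not searched. Among genes called lower in KO, the full motif was in 1 of 56 with a promoter in the table and the core in 8 (14.3%). Among genes called higher, these were 0 of 65 and 6 (9.23%). Of all 12239 tested genes with a promoter, 23 (0.188%) held the full motif and 12.4% the core. A match of letters is a description and not evidence of binding.

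The wider elongation machinery held 1 call, lower in KO, and 0 higher among 28 tested genes of 5 lists, where 0.492% of all genes were called lower and 0.511% higher. The lists, written from general knowledge, are elongation factors, modifiers and relatives of elongation factor 2, hypusine synthesis, methyltransferases of elongation factor 1A, and termination and rescue. Eef1g, the gamma subunit of the complex that recharges elongation factor 1A with GTP, fell to 48.9% of its WT level. Eef1g (chromosome 19, 8967041 to 8978180, plus strand) stood at 389, 353 and 373 CPM in WT and at 170.3, 172 and 203 CPM in KO. The groups were far apart, with a log2 fold change of -1.03 ± 0.09 (95% interval -1.25 to -0.81, edgeR adjusted p = 0.00651). Without KO 1 the fold change was -0.99 ± 0.11 and the edgeR adjusted p was 0.0700. It was called in the other 5 fits that left out a brain, and not with WT 1, WT 2, KO 1 and KO 2 alone (-1.11, edgeR adjusted p = 0.0887) or with the midbrain score (-0.997, 0.579).

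The other subunits of that complex were not called. Eef1b2 and Eef1d, the beta and delta subunits, had log2 differences of 0.15 ± 0.07 and 0.04 ± 0.07, and neither passed the edgeR test (adjusted p = 0.294 and 0.772). Eef1a1, the most abundant gene of the list, was at 9047, 7988 and 8625 TPM in WT and at 9969.8, 9371 and 10690.2 TPM in KO, with no overlap, and did not pass (0.25 ± 0.09, edgeR adjusted p = 0.223). Eef1a1 has near-identical copies in the genome, which makes its count uncertain. Eif5a, which carries hypusine and was the most abundant of the list after Eef1a1, had 0.17 ± 0.07 (edgeR adjusted p = 0.280). The median of the 9 elongation factors was 0.04.

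Genes that act on elongation factor 2 itself were not called by edgeR. Eef2k, the kinase that inhibits it, had a log2 difference of 0.06 ± 0.12 with a 95% interval of -0.22 to 0.34. Eef2kmt, a lysine methyltransferase of the same protein, was low and stood at 3.63, 3.65 and 3.77 CPM in WT and at 4.52, 5.01 and 6.15 CPM in KO (0.50 ± 0.16, edgeR adjusted p = 0.182). In this list of 8, edgeR called 0, DESeq2 called 1 higher, limma-voom 0, and 2 were higher at an unadjusted p below 0.05. These 2 were Eef2kmt and Hbs1l. Hbs1l had the smaller p of the 2, with a log2 difference of 0.22 ± 0.05 (edgeR adjusted p = 0.116). Of all 15848 genes, DESeq2 called 781 higher and limma-voom 97, and 10.3% were higher at an unadjusted p below 0.05. Of Eftud2 and Gtpbp1, the most abundant members of this list, both relatives of the same GTPase family, the differences were -0.04 ± 0.09 and -0.02 ± 0.06.

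The enzymes of hypusine, Dhps and Dohh, which modify another translation factor, had log2 differences of 0.19 ± 0.11 and -0.17 ± 0.09. None of the 4 tested methyltransferases of elongation factor 1A and none of the 5 genes of termination, rescue and recycling was called by edgeR, DESeq2 or limma-voom, and 0 had an unadjusted edgeR p below 0.05. Their medians were 0.05 and -0.04. Of all tested genes, 19.6% had an unadjusted edgeR p below 0.05, and edgeR called 0.492% lower and 0.511% higher. Among these 15848 genes, DESeq2 called 652 lower and 781 higher, and limma-voom 90 and 97. Eef1akmt2 and Eef1akmt1, the most abundant of the methyltransferases, had log2 differences of 0.21 ± 0.10 and -0.15 ± 0.10. Abce1, which splits the ribosome after termination, and Etf1, which reads stop codons, had 0.05 ± 0.07 and 0.07 ± 0.09. Eef1akmt3, listed under an older symbol, had too few counts to be tested.

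Dph5 uses S-adenosylmethionine (SAM) as its methyl donor. Of 5 genes of SAM supply, edgeR called 0, limma-voom 0 and DESeq2 1 higher, and 1 was higher at an unadjusted p below 0.05, beside the same shares over all genes as above. Mat2a, which makes SAM, was at -0.03 ± 0.10, and Ahcy, which clears its product, at 0.05 ± 0.09. Ahcyl1, a relative of Ahcy that regulates calcium release, had the largest value at 0.21 ± 0.05 (edgeR adjusted p = 0.128). The median of the list was -0.02.

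**Figure D4:**
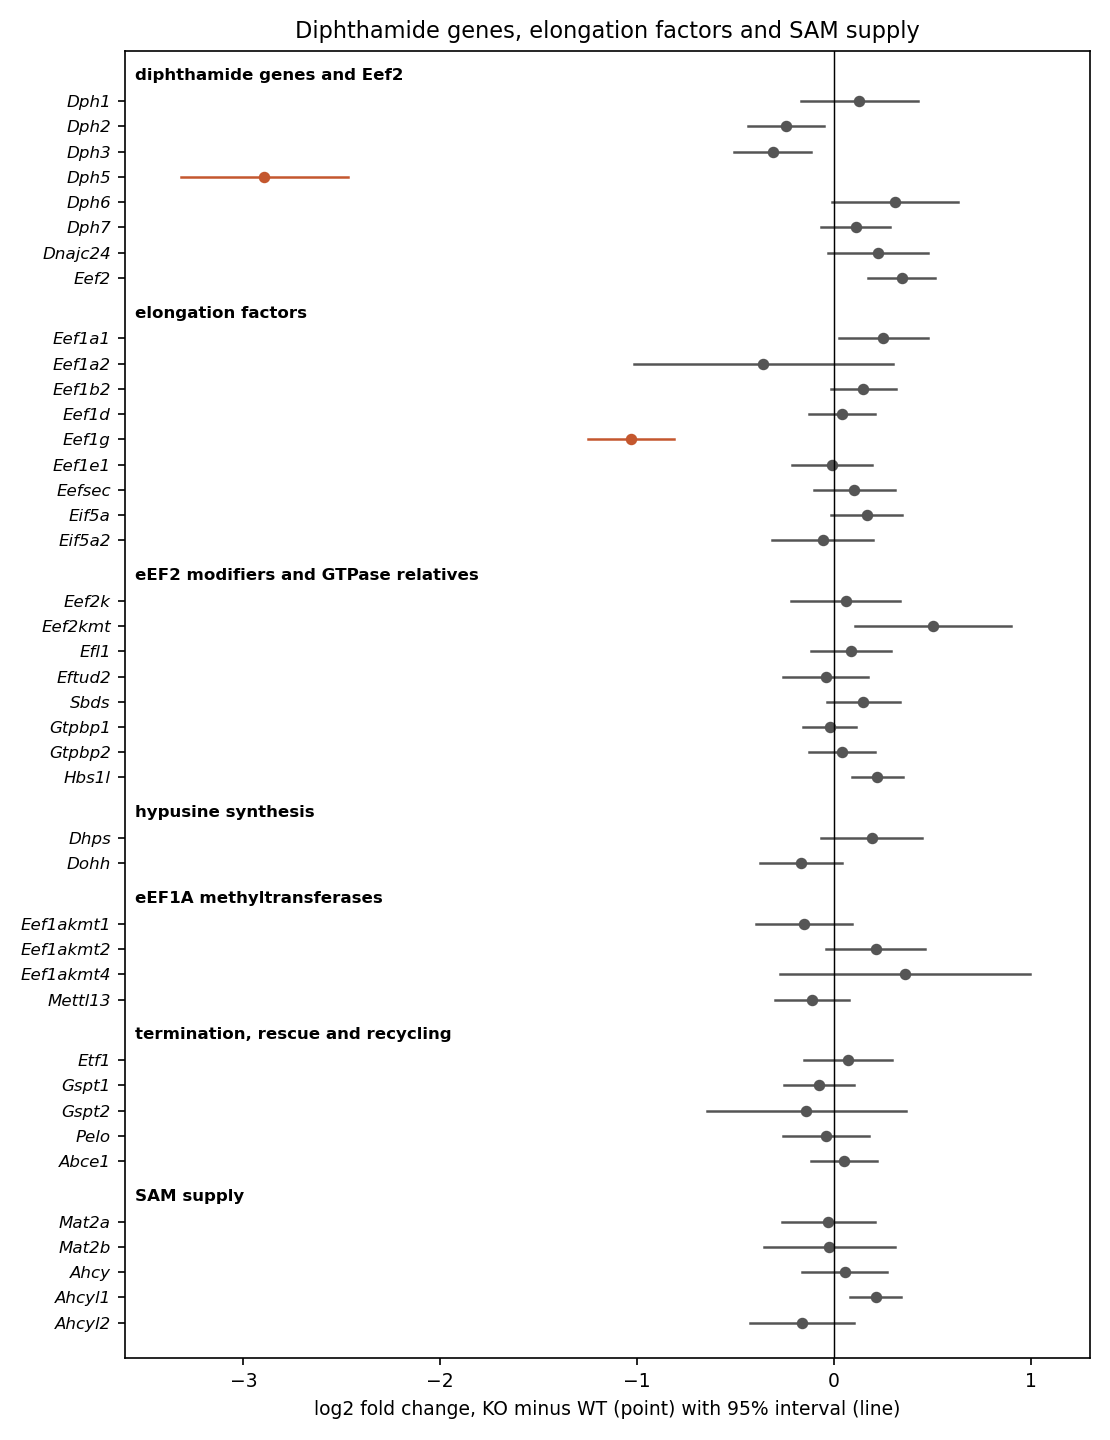
Log2 fold change of KO minus WT (horizontal axis, points) with its 95% interval (lines) for the 8 genes, the elongation lists and SAM supply, with called genes in orange. Dph5 at -2.89 and Eef1g at -1.03 are the 2 orange points, and the other points lie between -0.36 and 0.50.

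Genes with the pattern most like Dph5 were found by Pearson's correlation of log2 CPM over the 6 libraries, among genes whose mean was 1 CPM or more, sex-linked and predicted genes left out. The 5 highest were Tti2, Leo1, Elp3, Gcnt2 and Nsun5, with r between 0.998 and 0.9995. The 6 points share the difference between groups and the same libraries, and r is given as a description. Tti2, a partner of large kinases of the PIKK family, stood at 26.5, 25.9 and 26.2 CPM in WT and at 5.51, 5.89 and 6.49 CPM in KO. Gcnt2, a glycosyltransferase gene, stood at 11.2, 10.9 and 11.2 CPM in WT and at 5.20, 5.68 and 5.82 CPM in KO, at 50.1% of its WT level.

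Over 17 alternatives the Dph5 difference ranged from -3.02 to -2.39, the Eef2 difference from 0.31 to 0.41 and the Dph3 difference from -0.37 to -0.13. All 8 genes kept the sign of their difference in all 17.

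**Figure D5:**
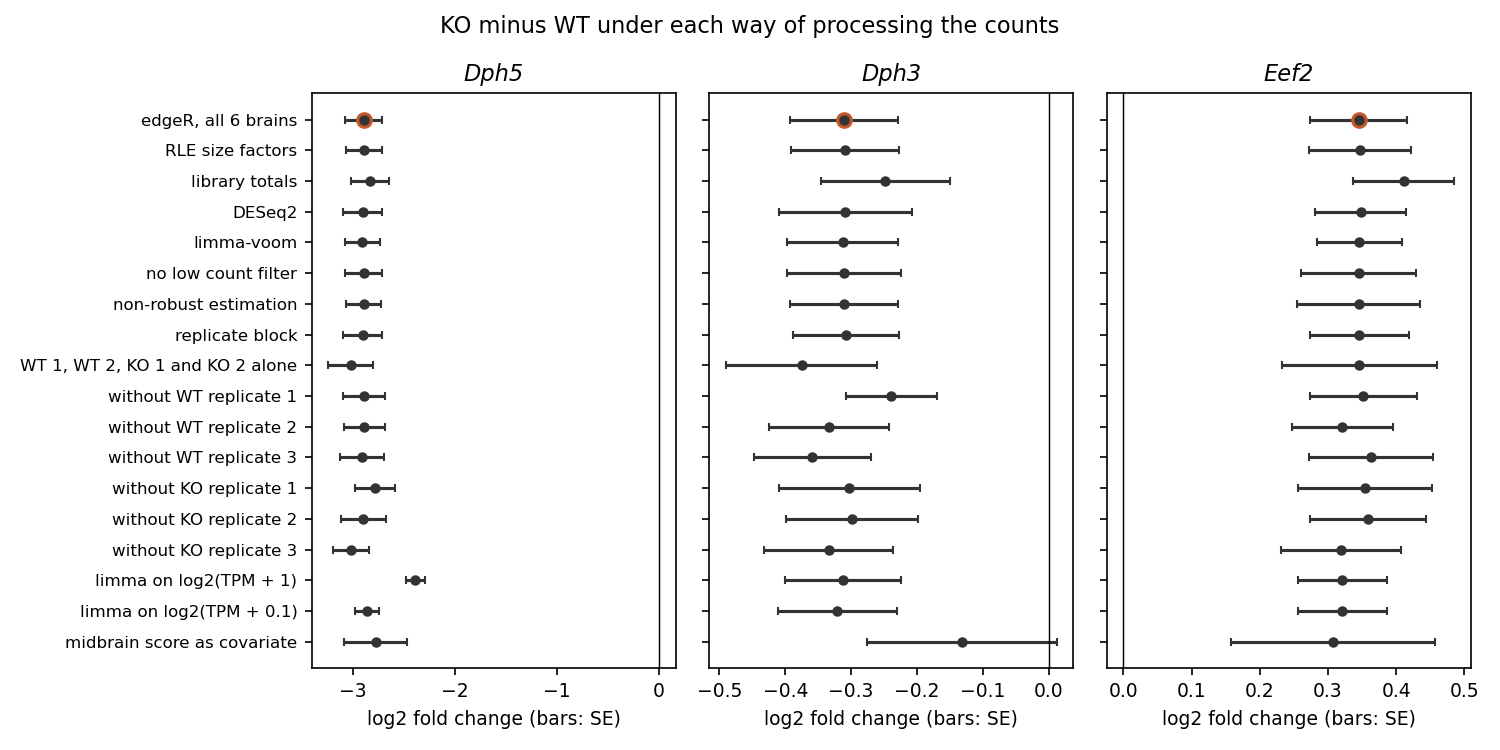
Log2 fold change of KO minus WT with its SE (horizontal axes, which differ between panels) for Dph5, Dph3 and Eef2 under the reported fit (orange, top) and 17 alternatives. Dph5 stays between -3.02 and -2.39, and Dph3 comes closest to 0, at -0.13, with the midbrain score as a covariate.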

How the data were processed

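RSEM 1.2.28, STAR 2.5.3a, Trimmomatic and FastQC were used, with mm10 (GRCm38), per the submitters' processing notes. The sources used here do not give their settings or the use of strand. Per the file headers, the authors deposited an expected count, a TPM and a mean transcript length for each gene. The deposited expected counts (98.9% to 99.0% within 0.005 of a whole number) were rounded. KO was compared with WT in edgeR (version 4.0.16) over 15848 genes kept by filterByExpr, with TMM scaling and the robust quasi-likelihood F test, two-sided, adjusted by Benjamini and Hochberg; called means an adjusted p below 0.05. SE follows from the F statistic. TPM deposited by the authors was used for levels and, as log2(TPM + 1) and log2(TPM + 0.1), in limma (version 3.58.1). DESeq2 had version 1.42.0. The midbrain score is the mean over En1, En2 and Pax5 of log2 CPM, with a small prior count added. The edgeR script was tested on simulated counts. It called 56.5% of the genes changed by a log2 of 1 and 96.7% of those changed by 2. Of its calls, 8.54% were false. Smaller changes were not simulated.

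The members and lists were chosen with earlier results of these data known. Named genes are E4f1, the 8 genes, called list members, the 2 most abundant of each list, the nearest neighbours, and the 5 genes most correlated with Dph5 (no predicted, pseudo- or sex-linked genes). A930005H10Rik, and the list members and neighbours beyond this rule, were picked after their values were seen. Pairs within a group differed beyond sampling noise (chi-square per degree of freedom 43.5 to 168). Symbols of 24752 of 24848 genes matched RefSeq.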

Additional observations from a re-analysis of the deposited data

How the results depend on the processing

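Dph5 was at -2.39 with limma on log2(TPM + 1), where the pseudocount shrinks low genes, and DESeq2 called Dph3 (-0.31) and Eef2 (0.35). DESeq2 thus called 2 of the 8 genes lower and 1 higher, and called 1 gene higher in the elongation lists and 1 in SAM supply. With WT 1, WT 2, KO 1 and KO 2 alone, and with the midbrain score as a covariate, edgeR called 0 of the 8 genes, 0 of the elongation lists and 0 of all genes in either direction, though Dph5 was at -3.02 and -2.78 and Eef1g at -1.11 and -0.997. The unadjusted p was below 0.05 in 3 and 1 of the 8 genes, in 1 and 1 of the elongation lists and in 1546 and 753 of all genes, and the cause was not tested. Of all genes, 78 were called lower and 81 higher. DESeq2 called 660 and 784 over its own set of genes, and 652 and 781 among the 15848 genes tested by edgeR. Scaling to library totals gave 63 and 123, with a median over all genes of 0.065 in place of -0.001. Leaving out 1 brain gave 24 to 42 lower and 12 to 40 higher genes and 0 to 1 lower in the elongation lists (0 without KO 1), with Dph5 between -3.02 and -2.78. The core in place of the full motif was found in 2 promoters in place of 1.

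The labels do not say whether the replicate numbers in the titles pair a WT brain with a KO brain. The deviations of WT and KO brains of the same number correlated at 0.12, 0.17 and 0.02. These values are low, and 5 of 6 brains correlated best with their own number. The 6 matches come from one shared set of correlations and are not independent, so pairing cannot be told from them. Whether brains of the same number share a litter or a batch was not tested. With the replicate number as a block, 42 genes were called lower and 24 higher, Dph5 was at -2.90, and A930005H10Rik lost its call (-2.99, edgeR adjusted p = 0.0605). Depth limits Dph5 and A930005H10Rik in KO, where they had 56 to 59 and 10 to 20 counts a library.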
